A study of Homo sapiens with 24 samples.

Results

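Interferon-stimulated genes are the transcripts that a cell raises when type I, II or III interferon binds its receptor. Receptor-bound Janus kinases phosphorylate STAT proteins, which enter the nucleus, with IRF9 or as dimers, and bind short promoter elements. The proteins made in this way sense and degrade viral RNA, block viral entry, tag other proteins with the ubiquitin-like modifier ISG15 and restrict viral genes in the nucleus. In epithelia this programme also runs at a low level without infection.

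The list examined here holds 57 such genes. Every probe set (a group of short array probes against 1 transcript) whose annotation gave only 1 of these symbols was taken, which gave 121 of the 54613 probe sets of the array that are not controls. A probe set was tested where 3 of 4 arrays of at least 1 group reached a log2 expression value of 3.2. This left 90 of the 121 probe sets, and 53 of the 57 genes, among 26036 probe sets and 12026 genes in all. MX2, SAMD9L, GBP2 and RTP4 stayed below that value and were not tested, with group means between 1.82 and 3.05. A gene is represented by its brightest tested probe set.

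The cells were RWPE1, an immortalized, non-transformed line of human prostate epithelium, grown in serum-free keratinocyte medium that held EGF, FGF and insulin. Cultures were harvested 6, 24 or 48 h after 100 nM 1,25(OH)2D (the active vitamin D hormone) or its ethanol vehicle was added, and each of the 6 groups has 4 arrays. The 48 h cultures, of both kinds, had their medium changed at 24 h. All arrays come from 1 cell line. The labels call the 4 replicates of a group biological, and no source says whether they were grown on different days or from different passages, so p-values measure the spread between these samples only.

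The cell type labels were checked on marker lists. All 7 basal prostate epithelial markers with a probe set passed the filter, and none of the 6 leukocyte markers with one was above a log2 value of 3.82 on any array. At 48 h the mean over the basal markers was 12.03 to 12.15 with 1,25(OH)2D and 12.29 to 12.38 in vehicle, with a log2 fold change of -1.92 for KRT15 and -0.37 for ITGB4. The other 5 of the 7 had the higher mean with 1,25(OH)2D, none past the test, and the median over the list was 0.06. Over the leukocyte markers it was 2.45 to 2.50 with 1,25(OH)2D and 2.46 to 2.49 in vehicle. Among the fibroblast markers COL1A1 changed by -0.60, while the list's mean was 3.94 to 4.02 with 1,25(OH)2D and 4.03 to 4.15 in vehicle; their part in the results below was not tested. Between arrays of 1 group the spread was widest at 24 h: 4 arrays stood apart on the first component of the residuals, namely vehicle 6 h replicate 1, vehicle 24 h replicate 1 and 1,25(OH)2D 24 h replicates 1 and 4. No 48 h array was among them, and counts of members that rest on these 4 arrays are given with and without them. The 4 were picked by these residuals, so leaving them out narrows the spread by the choice itself and can add calls over all genes.

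At 48 h the interferon-stimulated genes were lower in 1,25(OH)2D-treated cells than in vehicle nearly throughout the list. On limma's moderated test with Benjamini-Hochberg adjustment over all tested probe sets, 45 of the 53 tested genes fell and 0 rose, whereas 6.86% of all genes tested fell. At an unadjusted p of 0.05, 48 of the 53 were lower and 0 higher. Counts at an unadjusted p, here and below, were made for the members only. They have no share of all genes beside them. In 52 of the 53 the treated mean was the lower one. The median log2 fold change was -1.09 over the tested members and -0.01 over all genes. In array studies of bulk RNA, fewer cells that express a gene and less of its RNA per cell cannot be told apart.

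The size of the change varied widely within the list. Of the 45 genes that fell, 9 fell more than 4-fold, 21 between 2- and 4-fold and 15 by less than 2-fold. All 4 treated arrays lay below all 4 vehicle arrays in 48 of the 53 genes, against 10.8% of all genes. With no filter on dim probe sets all 57 genes entered the test and 41 fell, when 2.73% of all genes did. In both 48 h groups 50 of the 53 genes reached the filter's value of 3.2. IFI44L, IFI44 and TRIM22 reached it in vehicle and not in 1,25(OH)2D. All 3 are counted among the 45 that fell, with sizes set against the bottom of the scale. With a stricter filter, at a log2 value of 5, 43 of 48 tested genes fell, when 8.14% of all genes did.

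**Figure D1:**
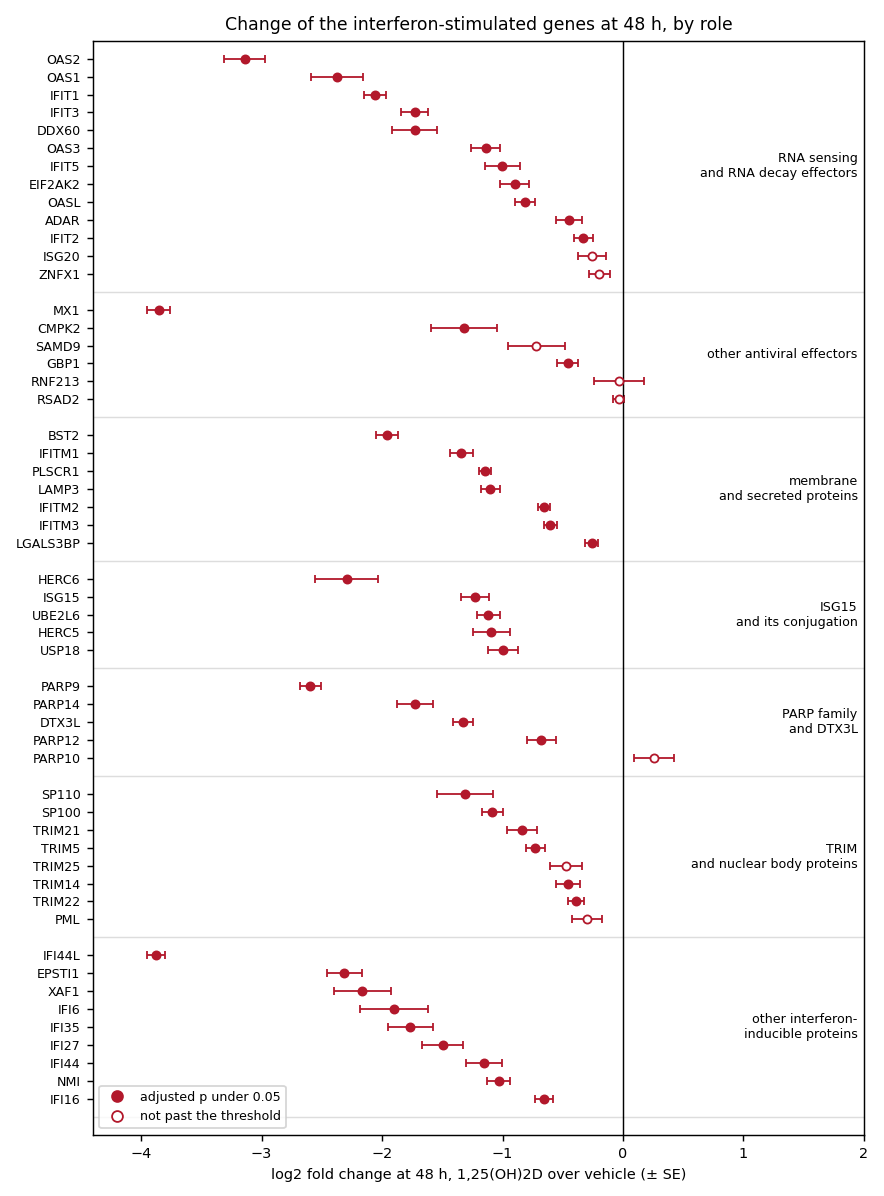
Log2 fold change at 48 h (1,25(OH)2D over vehicle, horizontal axis) of the 53 tested genes, with standard errors from limma, by role. Filled points passed an adjusted p of 0.05; every gene except PARP10 lies left of 0, and IFI44L (-3.88, with treated arrays at the bottom of the scale), MX1 (-3.85) and OAS2 (-3.14) lie farthest out.

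Among the proteins that sense or degrade RNA, 11 of 13 fell at 48 h. OAS1, OAS2 and OAS3 make 2'-5' oligoadenylates on double-stranded RNA, which switch on RNase L. OAS2 measured 4.88, 5.68, 5.51 and 5.09 (log2) on the 1,25(OH)2D arrays, against 8.47, 8.47, 8.48 and 8.30 in vehicle. The groups were separated by more than their whole ranges, and the log2 fold change was -3.14 (SE 0.17, adjusted p = 3.92e-05, limma), an 8.82-fold lower level. The 3 tested probe sets of OAS2 all fell but ranged from -3.14 to -1.06, and their average gave -1.78. OAS1 measured 7.32, 6.18, 6.86 and 6.86 with 1,25(OH)2D, against 9.33, 9.05, 9.21 and 9.13 in vehicle. Its change was -2.38 (SE 0.21, adjusted p = 4.95e-04, limma), and a second probe set of OAS1 gave -3.16. OAS3 and OASL fell less, by 1.14 and 0.81 on the log2 scale.

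Of the IFIT proteins, IFIT1 binds viral RNA that lacks the host cap methylation. IFIT1 fell by 2.06, IFIT3 by 1.73, IFIT5 by 1.00 and IFIT2 by 0.33 on the log2 scale, so the members of 1 gene cluster differed widely in size. DDX60, a helicase linked to RIG-I signalling, fell by 1.73. EIF2AK2, the kinase PKR that halts translation on double-stranded RNA, fell by 0.90, and the RNA editor ADAR fell by 0.45. The exonuclease ISG20 (-0.26, adjusted p = 0.238, limma) and the helicase ZNFX1 (-0.20, adjusted p = 0.230, limma) did not pass the test.

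Of the 6 other antiviral effectors tested, 3 fell. MX1, a dynamin-like GTPase that traps viral nucleocapsids, measured 6.70, 6.23, 6.50 and 6.38 in 1,25(OH)2D-treated cells at 48 h, against 10.39, 10.34, 10.29 and 10.21 in vehicle. Both groups were tight, and the gap between them gave a log2 fold change of -3.85 (SE 0.10, adjusted p = 9.60e-07, limma), or 14.5-fold. CMPK2, a mitochondrial nucleotide kinase, measured 4.17, 3.78, 3.73 and 4.04 with 1,25(OH)2D, against 5.86, 4.73, 4.76 and 5.66 in vehicle. The vehicle arrays of CMPK2 form a higher and a lower pair, both above every treated array. Its change of -1.32 (SE 0.28, adjusted p = 0.0224, limma) lost its call when vehicle replicate 4 (adjusted p = 0.0627), 1,25(OH)2D replicate 3 (0.0685) or 1,25(OH)2D replicate 4 (0.0545) was left out. GBP1, a GTPase best known from the response to interferon gamma, fell by 0.46. SAMD9 (-0.72, adjusted p = 0.111, limma) and RNF213 (-0.03) did not pass. RSAD2, which encodes viperin and lies next to CMPK2, stayed between 3.39 and 3.45 in all group means.

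Every tested membrane or secreted protein fell at 48 h, 7 of 7. BST2 (tetherin), which holds budding virions at the cell surface, measured 5.65, 5.46, 5.54 and 5.54 in treated cells, against 7.34, 7.38, 7.69 and 7.61 in vehicle. The change was -1.96 (SE 0.09, adjusted p = 1.38e-05, limma). IFITM1, which blocks fusion of virus and cell membranes, measured 11.62, 11.28, 11.65 and 11.71 in treated cells, against 12.85, 12.88, 12.88 and 13.02 in vehicle, a change of -1.34 (SE 0.10, adjusted p = 1.41e-04, limma). Its neighbours IFITM2 and IFITM3, also highly expressed, fell by 0.65 and 0.60 on the log2 scale. These 3 genes are close in sequence, and a probe set annotated to both IFITM1 and IFITM2 was left out, so cross-hybridization between them is possible. PLSCR1, a phospholipid scramblase, fell by 1.15, LAMP3, a lysosomal membrane protein, by 1.10, and the secreted glycoprotein LGALS3BP by 0.26.

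ISG15 and the enzymes that attach and remove it fell together, 5 of 5. ISG15 measured 11.95, 11.37, 11.71 and 11.78 in 1,25(OH)2D-treated cells at 48 h, against 12.90, 12.99, 12.90 and 12.92 in vehicle. The change was -1.23 (SE 0.11, adjusted p = 5.59e-04, limma), or 2.34-fold. UBE2L6, the E2 enzyme of the pathway, fell by 1.12, HERC5, its main human E3 ligase, by 1.09, and USP18, which removes ISG15 and restrains the interferon receptor, by 1.00. HERC6, a relative of HERC5 next to it in the genome, measured 3.61, 4.76, 4.55 and 3.77 with 1,25(OH)2D, against 6.73, 6.36, 6.31 and 6.47 in vehicle. The treated arrays of HERC6 were spread over more than 1 log2 unit, and all were below vehicle (change -2.30, SE 0.26, adjusted p = 0.00156, limma).

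The ADP-ribosyltransferases gave the exception to the direction. PARP9, which acts with the ubiquitin ligase DTX3L, measured 5.72, 6.04, 5.89 and 5.64 in treated cells at 48 h, against 8.51, 8.38, 8.37 and 8.41 in vehicle. The change was -2.60 (SE 0.09, adjusted p = 4.15e-06, limma). PARP14 measured 4.17, 3.87, 4.10 and 4.09 with 1,25(OH)2D, against 5.41, 6.11, 5.94 and 5.68 in vehicle, a change of -1.73 (SE 0.15, adjusted p = 3.90e-04, limma). DTX3L fell by 1.33 and PARP12 by 0.68. PARP10 averaged 7.69 ± 0.33 in treated cells and 7.43 ± 0.17 in vehicle (SD, n = 4 each), and this difference of 0.26 was within the spread of the arrays (adjusted p = 0.426, limma). It was the 1 tested member with a higher treated mean.

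Of the TRIM and nuclear body proteins 6 of 8 fell, by smaller amounts. SP110 and SP100 are chromatin readers of nuclear bodies encoded side by side. SP110 measured 6.36, 6.46, 6.82 and 5.65 in treated cells at 48 h, against 7.88, 7.67, 7.41 and 7.58 in vehicle (change -1.31, SE 0.23, adjusted p = 0.0115, limma). SP100 measured 6.70, 6.88, 6.57 and 6.67 with 1,25(OH)2D, against 7.71, 7.75, 7.72 and 7.99 in vehicle (change -1.08, SE 0.09, adjusted p = 2.77e-04, limma). SP100 was the tighter of the pair and SP110 had 1 treated array well below the other 3. TRIM21, a cytosolic antibody receptor, fell by 0.84, the retroviral restriction factor TRIM5 by 0.73, TRIM14 by 0.46 and TRIM22 by 0.39. TRIM22 was near the bottom of the scale, with means of 2.89 with 1,25(OH)2D and 3.29 in vehicle. TRIM25, the ligase that activates RIG-I (-0.48, adjusted p = 0.0641, limma), and PML (-0.30, adjusted p = 0.206, limma) did not pass, although 2 of the 8 tested probe sets of PML did.

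The last group, interferon-inducible proteins of mixed or little known function, held 9 genes, and all 9 fell. IFI44L measured 3.07, 2.84, 2.78 and 2.99 in treated cells at 48 h, against 6.67, 6.85, 6.82 and 6.85 in vehicle. The treated arrays lie at the bottom of the scale, where gcRMA values compress differences, and the log2 fold change was -3.88 (SE 0.08, adjusted p = 4.83e-07, limma). With 32 added to the linear values it was -1.86, against -3.44 for MX1 and -2.40 for OAS2. EPSTI1 measured 5.69, 5.82, 5.25 and 5.21 with 1,25(OH)2D, against 7.91, 7.86, 7.69 and 7.76 in vehicle (change -2.31, SE 0.14, adjusted p = 7.65e-05, limma). XAF1, a pro-apoptotic partner of XIAP, fell by 2.17, IFI6 by 1.90, IFI35 by 1.77 and IFI27 by 1.50. IFI44, the neighbour of IFI44L, fell by 1.15, NMI by 1.03 and the DNA sensor IFI16 by 0.66. IFI44 was also near the bottom of the scale, with means of 2.67 with 1,25(OH)2D and 3.82 in vehicle.

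Where a gene had several tested probe sets they mostly shared a direction, but not a size. Of the 21 such genes, 20 had all probe sets lower with 1,25(OH)2D at 48 h, and PARP10 was the other. In 12 every probe set fell, in 4 some did and in 5 none did. The log2 fold changes ranged from -2.60 to -0.54 over the probe sets of PARP9 (-1.57 when averaged), from -2.17 to -0.75 over those of XAF1 and from -1.66 to -0.01 over those of SP100. Over the 90 tested probe sets, 66 fell and 0 rose, against 5.61% that fell of all probe sets tested.

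**Figure D2:**
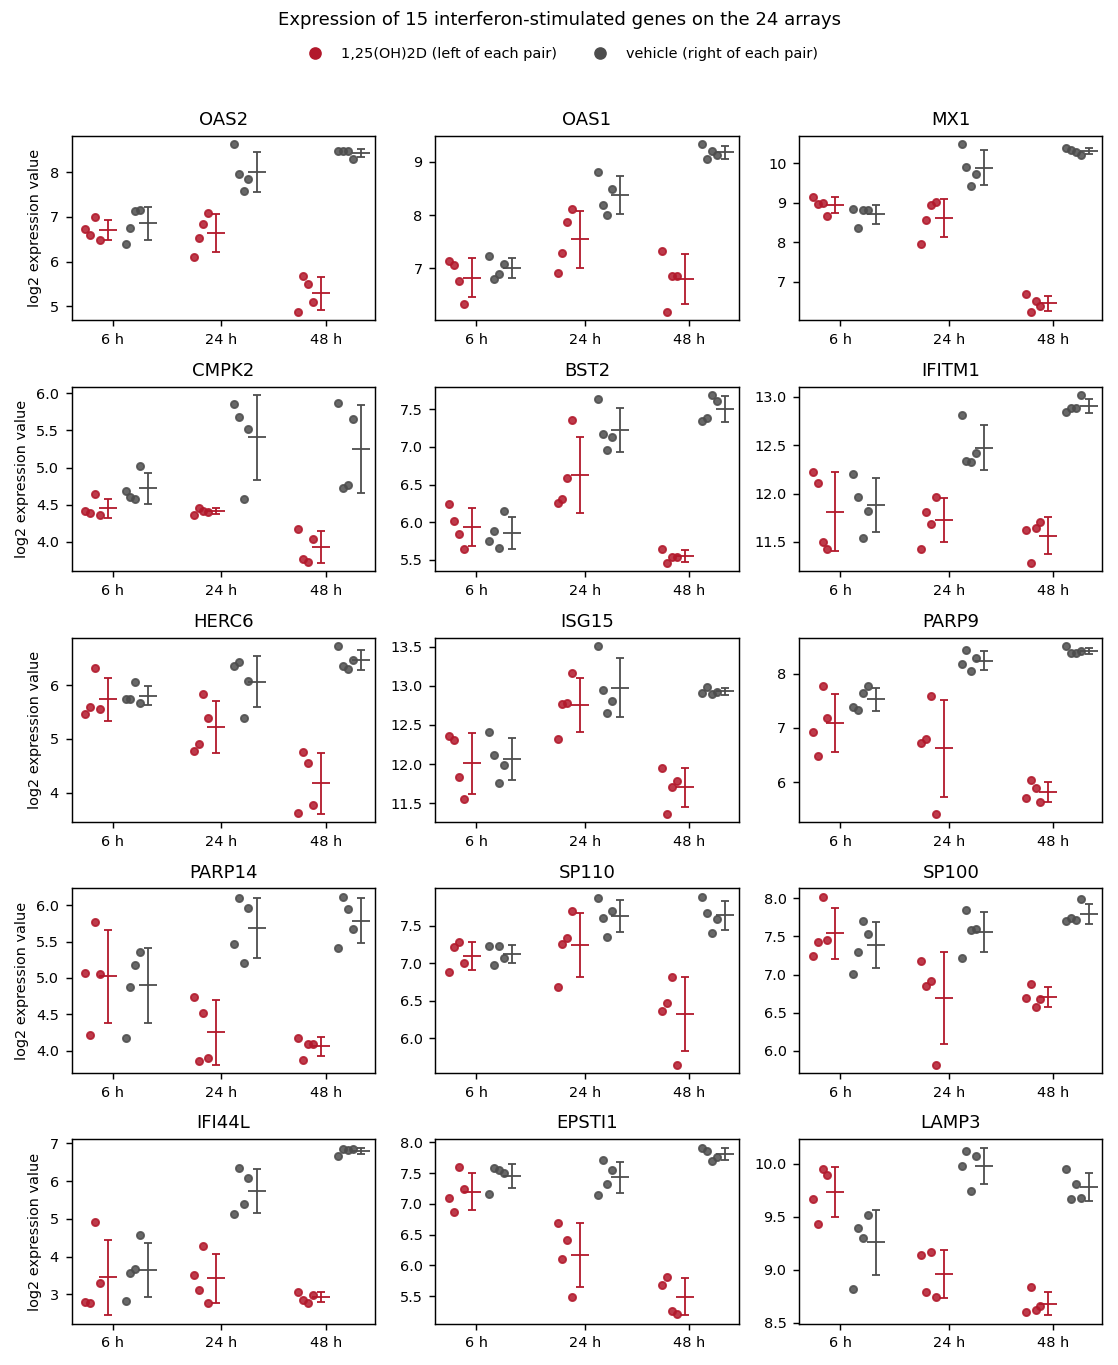
Log2 expression value (vertical axis, scaled per gene) of 15 interferon-stimulated genes on each of the 24 arrays; points are arrays, and the bars beside them are the group mean and SD (n = 4). At 48 h all treated arrays lie below all vehicle arrays in each panel, while at 6 h the groups overlap in each. The genes were mostly chosen for a large change at 48 h, so separation there was built into the choice. Over all genes 10.8% are separated in this direction at 48 h.

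The fall seen at 48 h was not called at the start, when 4 arrays per group may miss small differences. At 6 h, 0 of the 53 tested genes passed limma's test, when 3.40% of all genes did (409 of 12026). At an unadjusted p of 0.05, 1 was higher and 3 were lower. The median log2 fold change was -0.05 over the members and -0.03 over all genes. Of the 53, 34 had the lower mean with 1,25(OH)2D and 19 the higher. Log2 changes between -0.25 and 0 were seen in 45.3% of the members and 47.8% of all genes. Those between 0 and 0.25 were seen in 28.3% and 31.4%. IFI16 alone had all treated arrays below all vehicle arrays (4.25% of all genes did), with a change of -0.39.

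At 24 h the members were lower with 1,25(OH)2D in 48 of 53 genes, and 1 of them passed limma's test in the fit of that time alone. At an unadjusted p of 0.05, 25 were lower and 0 higher, a cut-off at which all genes were not counted. With all 24 arrays in 1 fit 12 fell, when 1.21% of all genes did. The median log2 fold change was -0.59, against 0.01 over all genes. In 15 genes all treated arrays lay below all vehicle arrays (3.05% of all genes did), among them MX1, OAS2, IFI44L, IFIT1, PARP9, PARP14, DTX3L, EPSTI1, IFITM1 and LAMP3. LAMP3 was the 1 gene that fell (0.191% of all genes did). It measured 9.14, 8.79, 9.16 and 8.74 in treated cells, against 9.98, 10.13, 9.74 and 10.08 in vehicle. The 2 groups are apart by more than either range, with a change of -1.02 (SE 0.14, adjusted p = 0.0343, limma).

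The LAMP3 call at 24 h rests on nearly all arrays. Without any 1 of the 4 vehicle arrays or of 1,25(OH)2D replicates 2, 3 and 4 its adjusted p was between 0.0626 and 0.172 (limma), and it passed when 1,25(OH)2D replicate 1 was left out. Without the 4 arrays that stand apart (3 of them of 24 h), 15 members fell and 1, ISG20, rose, when 14.2% of all genes fell. This fit keeps 1,25(OH)2D replicates 2 and 3 and vehicle replicates 2, 3 and 4 of 24 h. Members that fell in it included IFI44L (-2.24, adjusted p = 0.0319, limma) and MX1 (-0.94, adjusted p = 0.0296, limma). Calls over all genes went from 0.516% to 24.7%. As the arrays were picked by their residuals, these adjusted p-values may be too small. EIF2AK2 shows how 1 array can weigh at 24 h: it measured 9.29, 8.07, 8.37 and 4.16 in treated cells, against 7.94, 9.95, 9.62 and 9.69 in vehicle.

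**Figure D3:**
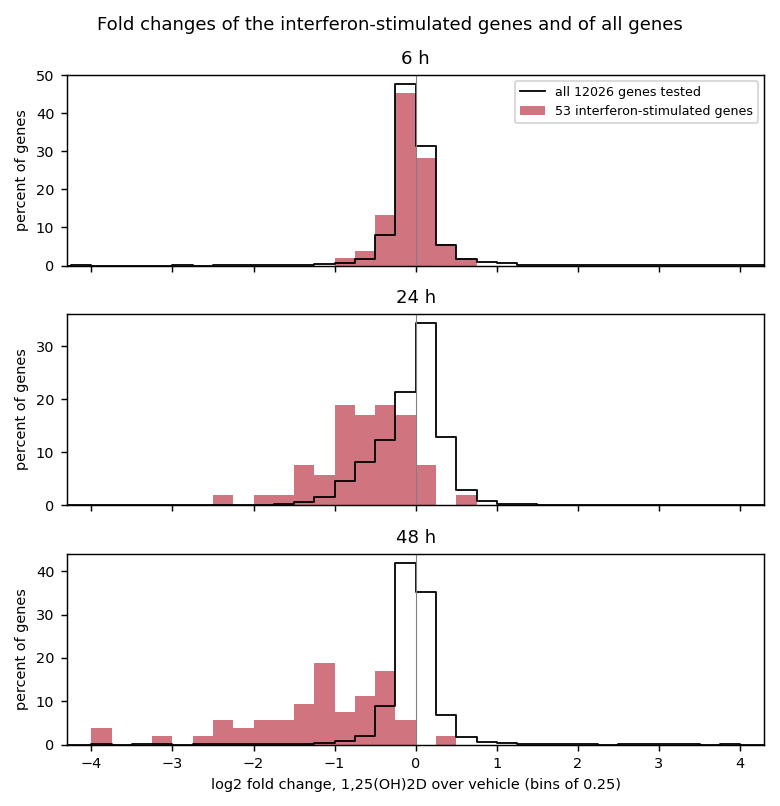
Share of genes (percent, vertical axis) by log2 fold change (1,25(OH)2D over vehicle, bins of 0.25) at 6, 24 and 48 h; red bars are the 53 interferon-stimulated genes and the black line all 12026 genes tested. The members centre on -0.05 at 6 h, -0.59 at 24 h and -1.09 at 48 h, while the whole array stays centred near 0.

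Whether the effect differed between times was tested in 1 fit of all 24 arrays. The effect at 48 h was below that at 6 h in 23 of the 53 genes and above it in 0 (2.23% of all genes were below). Without the 4 arrays that stand apart it was below in 31, when 3.93% of all genes were. MX1 had the largest such difference (-4.09, SE 0.30, adjusted p = 1.83e-08, limma), and IFI44L (-3.67), OAS2 (-2.99), XAF1 (-2.55) and HERC6 (-2.22) followed. Among genes that fell at 48 h without passing this test were IFIT1, IFIT3, HERC5 and PARP12, and their 6 h means were already lower with 1,25(OH)2D by 0.78, 0.65, 0.56 and 0.35 on the log2 scale, none past the 6 h threshold. The effect at 24 h was below that at 6 h in MX1 and LAMP3 (1.79% of all genes), and the effect at 48 h below that at 24 h in MX1 (0.0166%). Without the 4 arrays that stand apart these counts were 2 and 7, when 2.91% and 0.358% of all genes were below. These small counts moved with single arrays, and the share of all genes is not given beside them. The first became 4 without vehicle 6 h replicate 4, vehicle 24 h replicate 3 or 1,25(OH)2D 24 h replicate 4, and 5 without 1,25(OH)2D 24 h replicate 1 or 3. The second became 2 without vehicle 6 h replicate 1, vehicle 24 h replicate 1, 1,25(OH)2D 24 h replicate 4 or 1,25(OH)2D 48 h replicate 2, and 4 without 1,25(OH)2D 24 h replicate 1.

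The mean level per array shows where the separation lies among the 6 groups. Averaged over the 53 genes it was 7.65 ± 0.12 with 1,25(OH)2D and 7.72 ± 0.07 in vehicle at 6 h (log2, SD, n = 4 each). It was 7.64 ± 0.10 with 1,25(OH)2D and 8.24 ± 0.16 in vehicle at 24 h. At 48 h it was 7.22 ± 0.04 with 1,25(OH)2D and 8.43 ± 0.04 in vehicle. In order from the lowest, the 1,25(OH)2D arrays of 48 h (7.17 to 7.25) were apart from the next group, both 6 h groups and the 1,25(OH)2D arrays of 24 h overlapped (7.55 to 7.82), and the vehicle arrays of 24 h (8.01 to 8.37) and of 48 h (8.39 to 8.48) lay above them. The mean over all genes moved little, between 7.71 and 7.96 on single arrays.

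**Figure D4:**
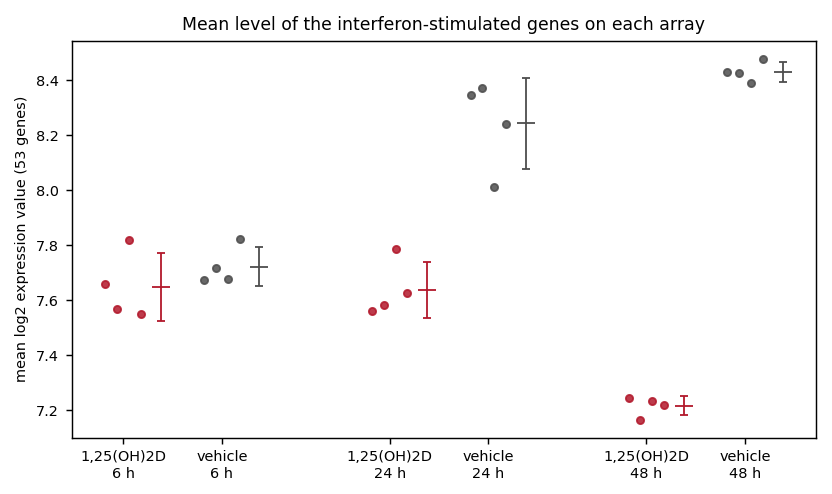
Mean log2 expression value of the 53 tested interferon-stimulated genes on each array (vertical axis, not starting at 0); points are arrays and the bars beside them the group mean and SD (n = 4). The 48 h groups are the lowest (7.17 to 7.25, 1,25(OH)2D) and the highest (8.39 to 8.48, vehicle) of the 6.

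The 2 arms moved apart after 6 h, although the mean level with 1,25(OH)2D was nearly the same at 24 h (7.64) as at 6 h (7.65). Only the 48 h cultures had their medium changed, at 24 h. In contrasts that end at 48 h, time in culture and fresh medium cannot be told apart. In vehicle, 17 of the 53 genes rose between 6 and 24 h and 0 fell, when 5.07% of all genes rose. Without the 4 arrays that stand apart 18 members rose, when 12.1% of all genes changed. Between 24 and 48 h 0 passed limma's test, when 0.166% of all genes rose. The median change of that step was 0.15, and at an unadjusted p of 0.05, 6 genes were higher and 1 lower. Without vehicle 24 h replicate 2 the count for that step was 1, when 0.2% of all genes changed. Without the 4 arrays that stand apart 7 members rose and 1 fell, when 3.65% of all genes changed. Between 6 and 48 h, a contrast added after the data were seen, 23 members rose in vehicle and 0 fell, when 9.00% of all genes rose. Without the 4 arrays 30 rose, when 38.4% of all genes changed and 17.5% fell. Among the members that rose were OAS1 (2.17), IFI6 (2.09), IFI27 (1.84) and XAF1 (1.76). IFI44L rose by 3.15 on the log2 scale (adjusted p = 2.64e-05, limma), a size that is set against 6 h values at or near the bottom of the scale. These contrasts share the vehicle arrays with the treatment comparisons, and the values are given side by side for that reason.

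In 1,25(OH)2D-treated cells 11 members fell and 2 rose between 6 and 48 h, again in the added contrast (9.17% of all genes fell and 10.9% rose). Without the 4 arrays that stand apart 19 fell and 3 rose, when 35.8% of all genes changed and 16.6% fell. MX1 fell by 2.49 (adjusted p = 3.53e-08, limma), EPSTI1 by 1.71, HERC6 by 1.56, OAS2 by 1.41, PARP9 by 1.27 and LAMP3 by 1.06. Those that rose were PARP10 (1.27) and LGALS3BP (0.42). The members thus had unlike courses. OAS1 differed by -0.02 between 6 and 48 h in treated cells and by 2.17 in vehicle, and IFI27 and IFI6 differed by 0.26 and 0.16 in treated cells. EPSTI1 differed by -1.71 in treated cells and by 0.35 (adjusted p = 0.315, limma) in vehicle. MX1 differed by -2.49 in treated cells and by 1.60 in vehicle.

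The full course of MX1 shows the pattern on single arrays. At 6 h it measured 9.14, 8.97, 8.99 and 8.67 with 1,25(OH)2D, against 8.83, 8.35, 8.82 and 8.81 in vehicle, and the groups overlapped. At 24 h it measured 7.94, 8.57, 8.93 and 9.01 with 1,25(OH)2D, against 10.47, 9.90, 9.43 and 9.73 in vehicle. IFI44L at 6 h measured 2.80, 2.77, 4.91 and 3.31 with 1,25(OH)2D, against 2.81, 3.57, 3.66 and 4.57 in vehicle, so it was at or near the bottom of the scale in both. Its vehicle arrays were at 5.12, 6.36, 5.40 and 6.07 by 24 h, when the 1,25(OH)2D arrays were at 3.52, 3.11, 4.29 and 2.78.

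Over the shorter steps the treated arm changed in fewer genes. Between 6 and 24 h 4 members rose (BST2, ISG15, PARP10 and TRIM25) and 3 fell (EPSTI1, SP100 and LAMP3), when 11.2% of all genes rose and 8.18% fell. The members' shares, 7.55% and 5.66%, were below those of all genes. Without 1,25(OH)2D 24 h replicate 1 the count of 7 became 18, for which the share of all genes is not given. Without 1,25(OH)2D 6 h replicate 3 it became 4, when 9.91% of all genes changed. Without the 4 arrays that stand apart it became 13, when 29.9% of all genes changed. Between 24 and 48 h 7 fell (1.69% of all genes did): MX1, OAS2, OASL, BST2, ISG15, SP110 and TRIM5. This count became 14 without 1,25(OH)2D 24 h replicate 1, for which the share of all genes is not given. It was also 14 without the 4 arrays that stand apart, when 3.56% of all genes fell. ISG15 measured 12.31, 12.77, 12.77 and 13.16 in treated cells at 24 h, against 13.51, 12.95, 12.65 and 12.80 in vehicle, which overlap.

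**Figure D5:**
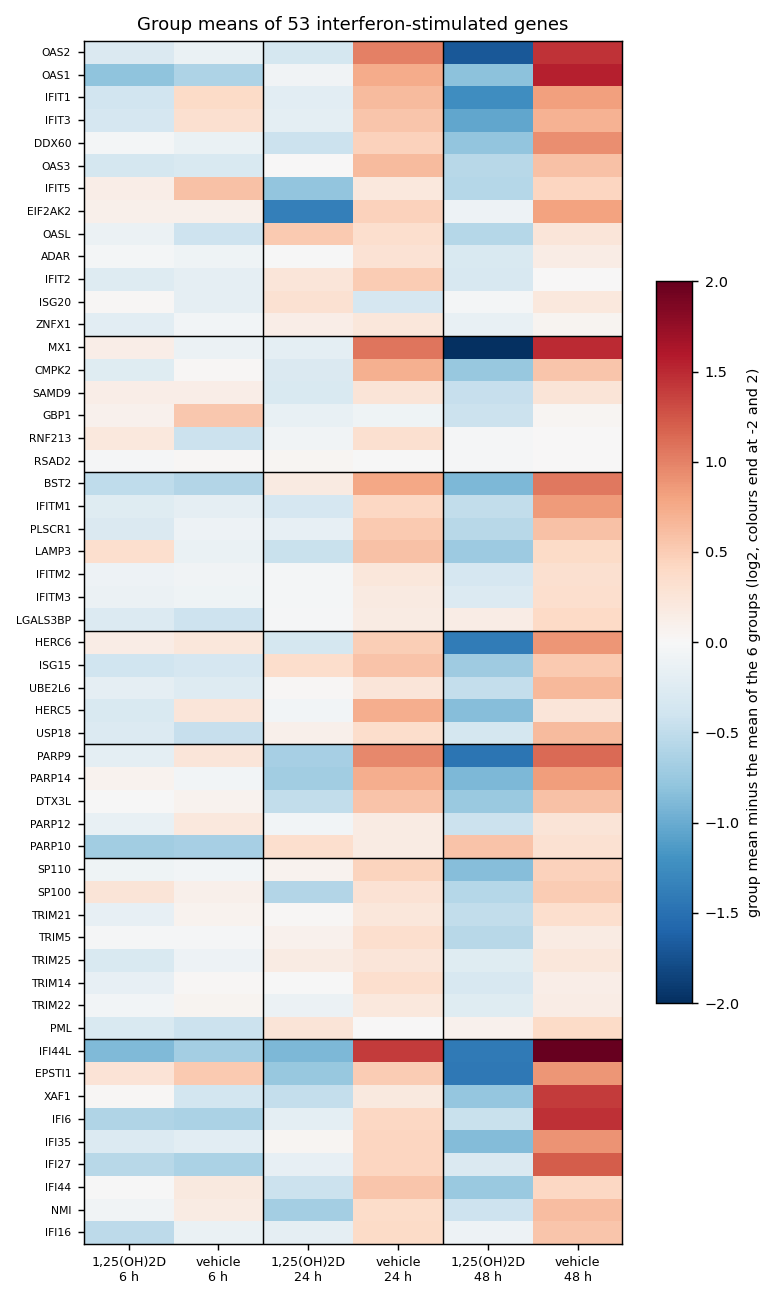
Group means of the 53 tested genes (rows, by role and then by the 48 h change), each less the mean of the 6 groups (log2, colour); columns are the 6 groups. The vehicle columns of 24 and 48 h are mostly red and the 1,25(OH)2D column of 48 h mostly blue, with PARP10 red in both 48 h columns.

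Several members are neighbours in the genome. By RefSeq gene positions, 29 of the 57 genes lie in 12 clusters in which consecutive members are at most 250 kb apart. Cluster members often share a direction but not a size. On chromosome 12 OAS1, OAS2 and OAS3 fell by 2.38, 3.14 and 1.14 at 48 h, and on chromosome 3 PARP9, DTX3L and PARP14 fell by 2.60, 1.33 and 1.73. On chromosome 21 MX1 fell by 3.85, and MX2 was at the bottom of the scale with group means from 1.82 to 1.85. On chromosome 2 CMPK2 fell by 1.32 next to RSAD2 at 3.39 with 1,25(OH)2D and 3.42 in vehicle.

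Many members also had a promoter feature that the rule did not use. The interferon-stimulated response element, the site of the STAT and IRF9 complex, contains GAAA in 2 copies with a short gap between them. This pattern, GAAA then any 2 bases then GAAA, was searched on both strands (TTTC, any 2 bases and TTTC on the other), overlapping matches allowed, in the 250 bases before each RefSeq start (GRCh38.p14). Of the 45 members with a promoter in that table, 29 (64.4%) held it, against 1014 of 27305 genes (3.71%). Among members that fell at 48 h 25 of 38 held it, and among the others 4 of 7. A match is a stretch of letters and not a measured site, and other variants of the element are not found by this pattern.

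The promoters of 4 genes that fell are shown from 200 bases before the start to the last base before it, with matches in capitals, to set a tandem, an overlapping and a closely spaced pair beside a promoter with no match.
IFI44L (chr1:78620248-78620447, plus strand): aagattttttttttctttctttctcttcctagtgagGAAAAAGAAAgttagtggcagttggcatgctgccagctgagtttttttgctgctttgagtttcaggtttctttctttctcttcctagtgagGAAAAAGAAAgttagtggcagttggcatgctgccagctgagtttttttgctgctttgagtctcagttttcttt
ISG15 (chr1:1013297-1013496, plus strand): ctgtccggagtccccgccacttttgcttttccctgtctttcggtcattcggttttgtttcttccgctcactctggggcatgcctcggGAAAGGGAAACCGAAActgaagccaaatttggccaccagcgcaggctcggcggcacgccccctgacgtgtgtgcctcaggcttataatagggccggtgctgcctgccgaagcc
IFIT1 (chr10:89392423-89392622, plus strand): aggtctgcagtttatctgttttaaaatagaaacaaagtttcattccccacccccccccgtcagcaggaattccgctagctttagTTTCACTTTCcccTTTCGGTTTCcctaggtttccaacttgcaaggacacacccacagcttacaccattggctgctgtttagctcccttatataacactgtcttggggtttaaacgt
OAS1 (chr12:112906762-112906961, plus strand): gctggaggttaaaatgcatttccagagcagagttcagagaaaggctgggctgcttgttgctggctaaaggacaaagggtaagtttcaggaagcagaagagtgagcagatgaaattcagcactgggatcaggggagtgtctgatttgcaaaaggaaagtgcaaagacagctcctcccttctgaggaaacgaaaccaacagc
IFI44L had 2 matches 164 and 73 bases before the start, inside a stretch that is repeated almost unchanged. ISG15 had 2 overlapping matches from 113 bases before the start, and IFIT1 had 2 on the other strand from 116 bases before it. OAS1, which fell by 2.38, had no match in the window. Close to its start it holds 2 copies of GAAA with a shorter gap, which the pattern does not find.

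Single matches with their flanks are given for further members, since the free bases and the position varied between genes. Each line holds 5 bases before the first match and 5 after it, and a second overlapping match is also in capitals.
IFI6 (chr1:27672334-27672353, minus strand): gagggGAAAATGAAActctg
BST2 (chr19:17405746-17405765, minus strand): tctggGAAACTGAAACTGAA
DDX60 (chr4:168318826-168318845, minus strand): gaaggGAAACTGAAAcctaa
IFIT5 (chr10:89414518-89414537, plus strand): ttaagTTTCGGTTTCtgaag
HERC5 (chr4:88456989-88457008, plus strand): tacagTTTCCTTTTCCTTTT
IFITM3 (chr11:320898-320917, minus strand): gccagGAAAAGGAAActgtt
EPSTI1 (chr13:42992277-42992296, minus strand): tctgaGAAACCGAAActcag
PARP9 (chr3:122564327-122564346, minus strand): caaagTTTCAGTTTCgcttc
PARP14 (chr3:122680805-122680824, plus strand): gaaacGAAAGCGAAAgagtc
OAS3 (chr12:112938326-112938345, plus strand): gaaacGAAACTGAAAgcagg
The first match began 156 bases before the start in IFI6 and 29 before it in PARP14. HERC5 and IFI6 had 3 matches each and fell by 1.09 and 1.90, whereas EPSTI1 and PARP9 had 1 each and fell by 2.31 and 2.60.

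Of the other genes of the interferon pathway, 10 of the 29 tested fell at 48 h and 0 rose, when 6.86% of all genes fell. The only ligand that passed the filter, IFNK (interferon kappa of keratinocytes), measured 3.58, 2.75, 2.78 and 3.45 in treated cells, against 6.21, 6.38, 6.23 and 6.61 in vehicle, and fell by 3.21 (adjusted p = 9.50e-05, limma). Of its treated arrays 2 were below the filter's value of 3.2, so this size is set against the bottom of the scale. IRF9 and IRF7, transcription factors of the pathway that interferon also induces, fell by 2.00 and 1.76, and the sensors IFIH1 (MDA5) and STING1 by 1.73 and 1.40. Of 6 receptor chains only IL10RB fell (by 0.48), and IFNAR1 (-0.12) and IFNAR2 (-0.06) did not pass. Of the 5 inhibitors of the pathway on this list (SOCS1, SOCS3, PIAS1, PTPN2 and PTPN6) only PIAS1 fell (by 0.45). USP18, which is counted among the members, fell by 1.00. The 1 tested chemokine, CCL5, stayed between 3.58 and 3.74 in all group means.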

How the data were processed

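The authors hybridized 24 RNA samples of RWPE1 cells to Affymetrix U133 Plus 2.0 arrays, and the deposited log2 values are their gcRMA summaries, background-corrected and normalized over all 24 arrays together (version not given in the sources used here). The authors' present-call filter was not applied to that table. Here 62 control probe sets were left out, and the filter at 3.2 described above was set to keep about as many probe sets. Symbols came from the platform annotation.

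Each time point was fitted by itself with limma 3.58.1 in R 4.3.3 (lmFit and eBayes, adjusted p under 0.05 over 26036 probe sets), as the study compared 2 unpaired classes at each time. Effects between times came from 1 fit of 6 group means. SAM, the study's test, was not run. Fits were tested on simulated data with noise drawn independently for each probe set. In the real arrays the first component held 75.17% of the residual variance, so the simulation cannot give the rate of false calls under such shared noise. Per-array values are given for the 2 members of each role with the largest called change at 48 h and for members called at 6 or 24 h; other values of single arrays (EIF2AK2, and earlier times) were chosen after seeing them. Alternatives covered the filter, normalization, an offset, the variance model, the probe set rule, pairing and left-out arrays. The members, roles and lists were chosen with earlier results of these data known. Arrays give no count depth, and their number limits the precision.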

Additional observations from a re-analysis of the deposited data

Results flagged for a closer look

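In 5 of 96 sets of 4 arrays (15 genes and the mean level, in 6 groups), 1 array lay far from the other 3 by Dixon's criterion, and chance flags about 1 in 20. OAS2 was 8.30 on vehicle 48 h replicate 4, against 8.47 to 8.48 on the others, and MX1 was 8.35 on vehicle 6 h replicate 2, against 8.81 to 8.83. HERC6 was 6.33 on 1,25(OH)2D 6 h replicate 3, against 5.46 to 5.59, and SP100 was 7.99 on vehicle 48 h replicate 4, against 7.71 to 7.75. IFI44L was 6.67 on vehicle 48 h replicate 1, against 6.82 to 6.85. At 48 h these gaps are small beside the difference between the groups.

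The effect of 1,25(OH)2D differed between times by the test of the difference itself in 14 of the 15 genes described by array. These genes were mostly chosen for a large change at 48 h, which also enters the test between 6 and 48 h. A high count was therefore built in. Over all tested members the effect at 48 h was below that at 6 h in 23 of 53, when 2.23% of all genes were below. The change in effect between 6 and 48 h was -4.09 for MX1, -3.67 for IFI44L, -2.99 for OAS2, -2.22 for HERC6, -2.19 for OAS1, -2.16 for PARP9 and -2.06 for EPSTI1 (log2). It was -2.04 for BST2, -1.86 for PARP14, -1.58 for LAMP3, -1.28 for SP110, -1.28 for IFITM1, -1.24 for SP100 and -1.17 for ISG15, with adjusted p from 1.83e-08 (MX1) to 0.0382 (SP100) in limma. CMPK2 did not pass (-1.05, adjusted p = 0.146, limma). The change in effect between 6 and 24 h passed for MX1 (-1.51) and LAMP3 (-1.50), and the change in effect between 24 and 48 h for MX1 (-2.59).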

How the results depend on the processing

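At 48 h the count of members that fell kept its size under every alternative run, from 36 with all 24 arrays in 1 fit to 46 with the probe sets of a gene averaged, and from 40 to 46 with 1 array left out. At 6 h it was 0 under all of them. At 24 h the count of 1 became 12 with all 24 arrays in 1 fit (2.75% of all genes changed). It became 2 after a second quantile normalization (0.499%). It was 0 with no filter and 0 with trend and robust eBayes. Without the 4 arrays that stand apart it was 16, when 24.7% of all genes changed. With 1 array left out it was 0 to 1. Same-numbered arrays of the 2 groups had residual correlations of 0.78, -0.39, 0.63 and 0.69 at 6 h, -0.91 to 0.39 at 24 h and -0.14 to 0.02 at 48 h, and 3, 0 and 0 of 8 arrays correlated best with their own number, so the numbers were not used as pairs. With the replicate number as a block the 24 h count was 0, as was that over all genes, and the 48 h count was 41; the other counts stayed within 1.5 times, and LAMP3 at 24 h was the 1 gene described by array that lost its call. Of 288 values of those genes under the alternatives, 272 kept their call, 16 lost it (LAMP3 at 24 h and CMPK2 at 48 h) and 0 changed direction; CMPK2 also lost it with no filter and with an offset of 32. In size, 6 of these values moved by over 1.5 times. With the offset IFI44L was -1.86 (before -3.88), HERC6 -1.25 (-2.30), PARP14 -0.85 (-1.73) and CMPK2 -0.59 (-1.32), and with averaged probe sets OAS2 was -1.78 (-3.14) and PARP9 -1.57 (-2.60).

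The change in effect between 6 and 48 h passed in 19 to 26 members with 1 array left out. The change in effect between 6 and 24 h passed in 5 after a second quantile normalization, when 2.67% of all genes passed. It passed in 4 after centring each array on its median (1.99% of all genes) and in 4 with the offset (3.12%). With 1 array left out it passed in 2 to 5. The change in effect between 24 and 48 h passed in 3 after the second normalization (0.0915% of all genes) and 2 after centring (0.0499%). It passed in 2 with averaged probe sets (0.0748%), 7 without the arrays that stand apart (0.599%) and 1 to 4 with 1 left out. In vehicle the change between 6 and 24 h was called in 11 after centring (6.28% of all genes) and in 12 to 20 with 1 left out. That between 24 and 48 h was called in 1 with the offset (0.665%) and 1 with averaged probe sets (0.491%). Without the arrays that stand apart it was called in 8 (3.65%), and with 1 left out in 0 to 1. Between 6 and 48 h it was called in 19 to 25 with 1 left out. With 1,25(OH)2D the change between 24 and 48 h was called in 12 after the second normalization (2.41% of all genes) and 13 after centring (2.15%). It was called in 12 with averaged probe sets (2.58%), 14 without the arrays that stand apart (6.29%) and 5 to 14 with 1 left out. The change between 6 and 24 h was called in 13 without the arrays that stand apart (4 to 18 with 1 left out). That between 6 and 48 h was called in 22 (9 to 16). Without the arrays that stand apart 29.9% and 35.8% of all genes changed over these spans. Ranges with 1 array left out are given without the share of all genes, which also moves with the array. The causes were not tested.

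The difference in mean level was -0.20 at 6 h and -1.31 at 48 h with the median over genes, against -0.07 and -1.21 with the mean. At 48 h it was -1.13 over all 57 members and -1.13 with averaged probe sets. At 24 h it was -0.44 after centring and -0.60 before; centring moved the median of all genes by 0.17 at that time, to 0.18. With 1 array left out it was -0.13 to -0.04 at 6 h, -0.68 to -0.56 at 24 h and -1.23 to -1.20 at 48 h. Array signal near the bottom of the scale limits IFI44L, IFI44, TRIM22, RSAD2, IFNK and the 4 untested genes.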
